A study of Homo sapiens with 8 samples.

Results

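The 76 array probes described here were well above background on all 6 arrays of the Vec, TET1-CDwt and MBD-TET1-CDmut clones and on neither of the 2 arrays of the MBD-TET1-CDwt clones. They were chosen by this pattern of detection flags from 34127 non-control probes, of which 20864 were well above background on the 6 other arrays, so the members made up 0.364% of the probes that could have been chosen. Because the flags of MBD-TET1-CDwt against the other constructs chose the members, their lower signal in MBD-TET1-CDwt is given as a description, with no test. The members carried 75 distinct names, and 51 probes matched a gene symbol (50 genes, with LINC01061 matched by 2 probes).

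HEK293T, a line derived from human embryonic kidney and carrying the SV40 large T antigen, had been stably transfected with 1 of 4 plasmids, and 2 independently isolated clones were kept for each. Vec carried the empty pcDNA6/myc-His plasmid, and the other plasmids were built on pcDNA6, in which a cytomegalovirus promoter drives the insert. TET1-CDwt was the catalytic domain of human TET1 alone, MBD-TET1-CDwt the same domain joined to the methyl-CpG-binding domain (MBD) of MBD2, and MBD-TET1-CDmut the same fusion with a catalytically inactive domain. The 8 arrays, each for total RNA of 1 clone, came from clones #1 and #2 of Vec, #2 and #5 of TET1-CDwt, #9 and #10 of MBD-TET1-CDmut, and #3 and #10 of MBD-TET1-CDwt. Values are listed below in this order.

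TET enzymes oxidize 5-methylcytosine, an early step in the removal of DNA methylation, and MBD2 binds methylated CpG dinucleotides. Methylation of a CpG-rich promoter is commonly linked to silencing, so such fusions are usually studied for genes that are switched on. The probes described here are those on the opposite side, with a detection flag that was missing in the fusion with the active domain.

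The flag, set by the scanner software for each spot, asks whether the signal exceeds the local background by a set margin. A weaker flag of the same software asks only whether the signal is positive and significant against background. All 76 members passed the weaker flag on the 6 other arrays and on MBD-TET1-CDwt #10, and 73 passed it on MBD-TET1-CDwt #3 as well. The 3 that did not on clone #3 were CDH11, PLA2G1B and SLC35F1. A missing flag below therefore means a signal too dim for the stricter flag, not an absent signal, and each member kept a significant signal in at least 1 of the clones. In RNA of a whole clone, fewer expressing cells and less RNA per cell cannot be told apart.

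Signals were compared as log2 of the processed intensity minus the 75th percentile of the array, so that 0 is the level of a bright probe and every member lay far below it. The median over the members of the mean of the 6 other arrays was -4.91, and for all 20864 probes it was -0.70. The brightest member, NOVA2, had a mean of -3.90 on the 6 arrays. In the MBD-TET1-CDwt clones a signal entered the comparison at its own value or at the lowest signal well above background on that array (the floor), whichever was higher. A fold written with "at least" is therefore a lower bound on the measured fold at this scaling. For the 22 members above the floor in both clones the fold is the measured one. Members were chosen for low signals on the MBD-TET1-CDwt arrays, so these folds do not bound the true difference.

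Slide 1 held the Vec and TET1-CDwt arrays and slide 2 both MBD fusions, and the detection limit moved with the slide. The floor lay between -6.01 and -5.82 on slide 1 and between -5.56 and -5.51 on slide 2, and 65.8 to 68.2% of probes were well above background on slide 1 against 63.2 to 64.6% on slide 2. The 75th percentile ranged from an intensity of 328 in MBD-TET1-CDwt #10 to 527 in TET1-CDwt #2, and the clones of a construct correlated with r between 0.9746 (MBD-TET1-CDwt) and 0.9946 (MBD-TET1-CDmut) across probes. MBD-TET1-CDmut shared the slide and is therefore the comparison in which slide does not differ. All 9 genes taken as markers of HEK293T were well above background on all 8 arrays. The brighter probe of TET1 itself ranged from 2.61 to 2.94 over all clones. The dimmer was at -1.28 and -1.20 in Vec, -1.03 and -1.31 in TET1-CDwt clones, -0.70 and -0.91 in MBD-TET1-CDmut, and -1.55 and -1.44 in MBD-TET1-CDwt. By this probe both MBD-TET1-CDwt clones were below all other arrays and both MBD-TET1-CDmut clones above them. Where the TET1 probes lie relative to the transfected catalytic domain was not examined.

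The same rule was turned on each construct in turn. It found 0 probes in TET1-CDwt (0% of 20413), 1 in Vec (0.0049% of 20402), and 47 in MBD-TET1-CDmut (0.228% of 20590), whose differences had a median of 0.55 and reached 1.44, with 6 of at least 2-fold. The opposite rule asked for probes well above background in both clones of a construct and on none of the 6 other arrays. Of the probes well above background on none of the 6, it found 37 of 9481 in MBD-TET1-CDwt and 2 of 9355 in MBD-TET1-CDmut. In Vec it found 61 of 9861 and in TET1-CDwt 24 of 9572. The constructs with 76 and 47 probes by the first rule were both on slide 2, and the part of slide in these counts was not tested.

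Within the 76 members, the mean of the 6 other arrays exceeded that of MBD-TET1-CDwt by a median log2 difference of 0.56 (at least 1.47-fold), with a range from 0.09 to 1.64. A difference of 5-fold was reached by 0 members, and 2-fold by 5. Among all 20864 probes well above background on the 6 arrays, 141 (0.676%) were at least 2-fold lower in MBD-TET1-CDwt and 6 (0.0288%) at least 5-fold lower. The 5 members were NOVA2, CDH11, ADGRG1, BC047507 and RDM1P5, and 36 members were at least 1.5-fold lower. With the normexp background correction 0 members were at least 2-fold lower. Without the floor, with dim signals as measured, the median was 0.71, 20 members were at least 2-fold lower, and 2 (CDH11 and SLC35F1) at least 5-fold lower.

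**Figure D1:**
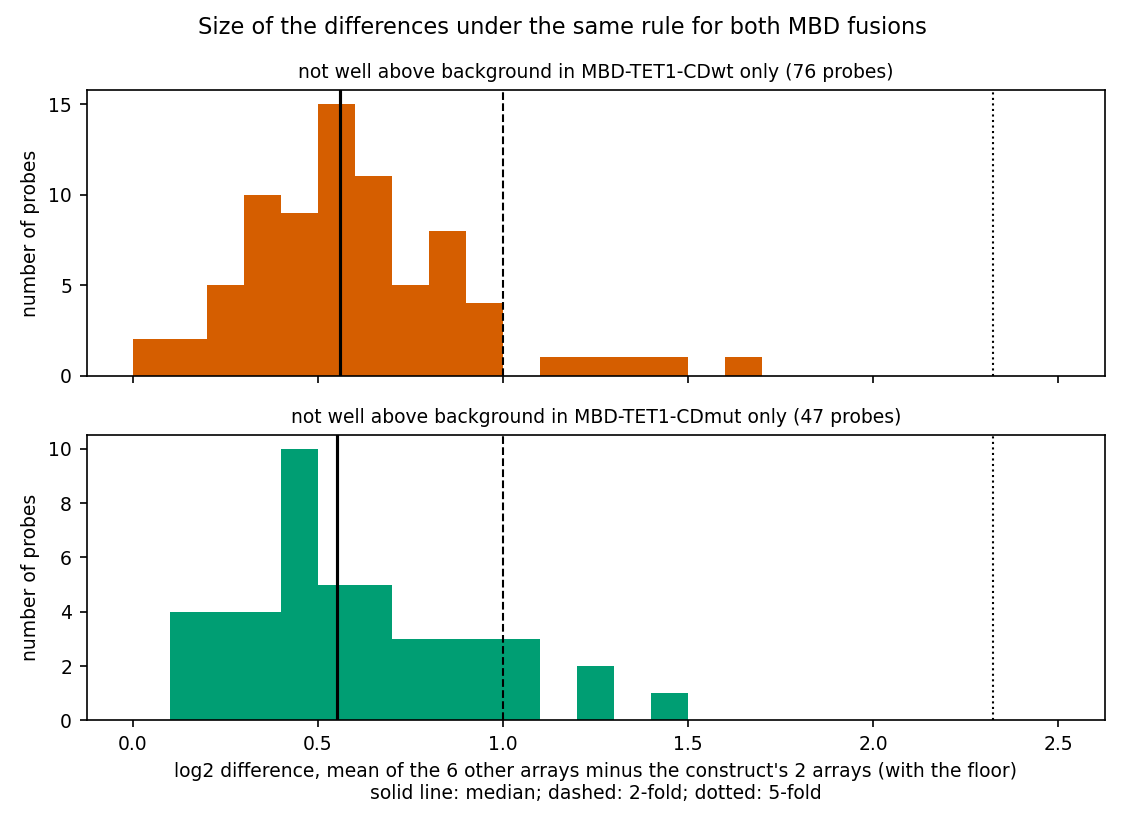
Histograms of the log2 difference (x axis) for probes well above background on 6 arrays and on neither array of 1 construct, with the number of probes on the y axis; MBD-TET1-CDwt above and MBD-TET1-CDmut below. The medians (solid lines) were 0.56 and 0.55, and 5 of 76 and 6 of 47 probes lay past the dashed line of 2-fold.

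Against MBD-TET1-CDmut alone, on the same slide, the median difference of the members was 0.57 (0.14 to 1.96), with 6 of at least 2-fold and 0 below 0. Compared with Vec alone it was 0.67 (-0.09 to 1.58), with 12 of at least 2-fold and 3 below 0. With TET1-CDwt alone the median was 0.44 (-0.30 to 2.19), with 6 of at least 2-fold and 4 below 0. Both MBD-TET1-CDwt clones were below all 6 other arrays for 54 of the 76 members, and for 1189 (5.7%) of the 20864 probes. For the other 22 members at least 1 clone overlapped the 6 other arrays. The clones did not differ in a fixed direction, with clone #10 above clone #3 for 39 members and below it for 37.

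Most members lay at the edge of detection on the 6 arrays too. The smallest distance of the 6 signals above the floor of their own arrays was a median of 0.45 (0.06 to 1.57). It was under 1 for 72 members and under 0.5 for 47. In 48 members the array of this smallest distance was a MBD-TET1-CDmut array. The floor was higher there than on slide 1, so this array need not hold the lowest signal. The floor is not a single limit, since probes of up to -4.87 on MBD-TET1-CDwt #3 and -4.86 on #10 were not flagged as well above background. Of the 456 signals of the members on the 6 arrays, 249 (54.6%) were at or below -4.86, a level at which a probe could still miss the flag in a MBD-TET1-CDwt clone. Of the 152 signals in the MBD-TET1-CDwt clones, 68 were above the floor of their own array, and 22 members were above it in both clones.

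**Figure D2:**
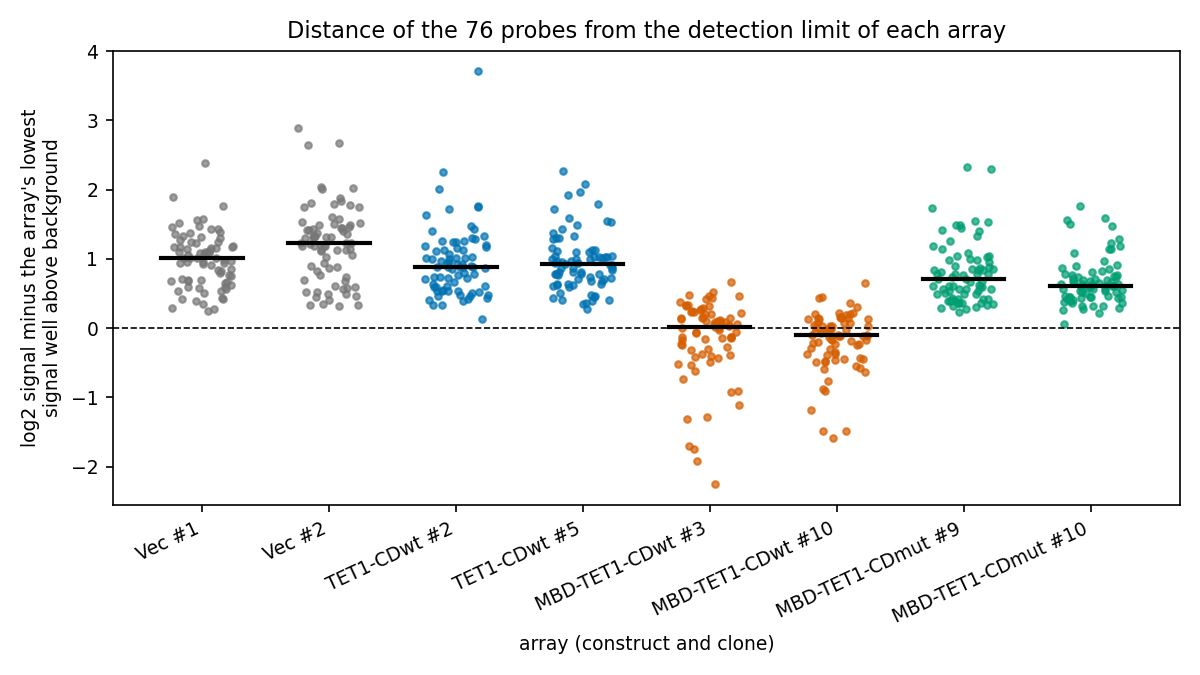
Distance of each of the 76 probes from the lowest signal well above background of each array, in log2 units (y axis), for the 8 arrays (x axis); each point is a probe and each black bar the median of an array. Medians were 0.61 to 1.23 on the 6 arrays that had to carry the flag and 0.02 and -0.11 on MBD-TET1-CDwt #3 and #10.

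Of the 76 members, 44 were probes of protein coding genes (57.9%), against 80.0% of the 20864 probes well above background on the 6 arrays. The others were 11 Ensembl transcripts (14.5% against 5.26%), 6 GenBank sequences (7.89% against 3.20%) and 5 RefSeq transcripts (6.58% against 4.03%) without a match to a symbol, 5 probes of long non-coding RNAs (6.58% against 2.01%), 3 probes with no sequence name (3.95% against 3.80%), and 2 probes of pseudogenes (2.63% against 1.52%). These shares are set against mostly brighter probes. Of the 20864, only 2432 (11.7%) had a mean on the 6 arrays no higher than that of the brightest member. Shares among equally dim probes were not taken. The 51 named probes lay on 16 chromosomes with at most 5 on 1, and no 2 different named genes were within 10 genes of each other. None belonged to the list of DNA methylation genes, of which 13 of 15 with a probe were well above background on all 8 arrays, or to the list of imprinted genes. The role groups below were formed after the members were known and serve only to order them. Their counts of members with both MBD-TET1-CDwt clones below the 6 other arrays stand beside 54 of all 76 members. Over the 20864 probes this share was 5.7%, and the rule itself favours such an order.

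The 250 bases before the annotated start are shown for the 2 coding members of largest difference that had a promoter sequence available. CDH11 differed more than ADGRG1 but had none. CpG dinucleotides (in capitals) are what the MBD binds when methylated. NOVA2 (chr19:45973866-45974115, minus strand) held 27 CpG in this window and ADGRG1 (chr16:57619488-57619737, plus strand) 4. The sequences are from RefSeq, build GRCh38.p14, written 5′ to 3′ in the direction of transcription, and methylation of these bases was not measured on the arrays.
NOVA2: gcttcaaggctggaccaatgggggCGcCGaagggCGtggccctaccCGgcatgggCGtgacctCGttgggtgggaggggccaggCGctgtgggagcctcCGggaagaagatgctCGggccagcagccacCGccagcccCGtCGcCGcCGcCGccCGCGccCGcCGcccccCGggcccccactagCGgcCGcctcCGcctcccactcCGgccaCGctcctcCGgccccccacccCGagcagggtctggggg
ADGRG1: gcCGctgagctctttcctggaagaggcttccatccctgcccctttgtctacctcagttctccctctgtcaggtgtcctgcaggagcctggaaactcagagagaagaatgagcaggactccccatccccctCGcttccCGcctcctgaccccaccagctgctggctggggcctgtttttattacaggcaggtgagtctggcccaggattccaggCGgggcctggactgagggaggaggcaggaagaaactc

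Promoters of 38 of the 50 named genes were in the table of windows of 300 bases around the start. They held a median of 19.5 CpG, from 0 in OR5K3, an olfactory receptor, to 49 in CACNA1B. The ratio of observed to expected CpG was at least 0.6 in 65.8% of them, in 81.0% of the 10893 promoters whose gene had a probe well above background on the 6 arrays, and in 49.0% of all 27305 promoters. On either strand the letters TATAAA were in 3 member promoters (7.89%), in 6.27% of those 10893 promoters and in 12.0% of all. CACGTG was in 3 (7.89%, against 10.0 and 7.43%), TGACGTCA in 1 (2.63%, against 3.25 and 1.98%), and the palindromic NRF1 motif in 1 (2.63%, against 2.28 and 1.36%), so the members lay between both backgrounds for the first 3 motifs and above both for the fourth. CACGTG and TGACGTCA share the letters ACGT. Neither background was matched to the dim signals of the members, so these shares are a description only.

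Of the members, 10 were coding genes best known from neurons and secretory vesicles, with differences from 0.16 to 1.64 and a median of 0.58, and in 7 of them both MBD-TET1-CDwt clones were below all 6 other arrays. NOVA2, a neuronal RNA-binding protein that regulates splicing, had signals of -4.25 and -4.13 in Vec, -3.68 and -4.17 in TET1-CDwt clones, -3.21 and -3.94 in MBD-TET1-CDmut, and -5.72 and -5.52 in MBD-TET1-CDwt. Both MBD-TET1-CDwt clones were below every other clone, by 1.27 at the nearest, and the difference was 1.64 (at least 3.12-fold), or 0.70 and thus under 2-fold with the normexp background correction. It was the only member that lay more than 1.5 above the floor of each of the 6 arrays. RIMS3, a protein of the presynaptic active zone, was at -4.05 and -4.87 in Vec, -3.93 and -5.02 in TET1-CDwt clones, -4.28 and -4.66 in MBD-TET1-CDmut, and -5.27 and -5.51 in MBD-TET1-CDwt. The groups did not overlap, but TET1-CDwt #5 came within 0.26 of clone #3, and the difference was 0.92 (1.90-fold). PIANP, a neural ligand of the receptor PILRA, was at -4.49 and -4.70 in Vec, -4.64 and -4.30 in TET1-CDwt clones, -4.00 and -4.76 in MBD-TET1-CDmut, and -5.34 and -5.06 in MBD-TET1-CDwt. Its difference was 0.72 (1.65-fold), and all signals of the 6 arrays were higher than both clones.

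The other 7 of these genes had smaller differences. RAB3B, a small GTPase of regulated exocytosis, differed by 0.65 and ANK2, the membrane adaptor ankyrin-B, by 0.64. SCG3, a secretory granule protein, differed by 0.52 and the adhesion molecule NCAM1 by 0.43, in both cases without overlap. KIF5A, a neuronal kinesin heavy chain, differed by 0.43, CACNA1B, the pore of the N-type calcium channel, by 0.37, and SYTL2, a vesicle trafficking protein, by 0.16, and in these 3 the clones overlapped the other arrays.

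Another 8 members were adhesion and cell surface genes, from 0.29 to 1.43 with a median of 0.67, and 7 had both clones below all other arrays. CDH11, a type II cadherin of mesenchymal and bone cells, was at -5.20 and -5.54 in Vec, -2.23 and -4.46 in TET1-CDwt clones, -3.24 and -3.97 in MBD-TET1-CDmut, and -7.82 and -6.15 in MBD-TET1-CDwt. The spread among the 6 arrays was wide, from -5.54 in Vec #2 to -2.23 in TET1-CDwt #2. Against all 6 arrays the difference was 1.43 (at least 2.70-fold), but against Vec alone it was 0.17. ADGRG1, an adhesion G protein-coupled receptor also known as GPR56, was at -4.72 and -4.86 in Vec, -4.54 and -3.62 in TET1-CDwt clones, -3.80 and -3.76 in MBD-TET1-CDmut, and -6.67 and -5.75 in MBD-TET1-CDwt. Both clones were below all others and the difference was 1.32 (at least 2.50-fold), 1.76 against MBD-TET1-CDmut, 0.75 against Vec, and 0.72 with normexp. The integrin subunit ITGA4, which pairs with beta 1 in the receptor for VCAM1 and fibronectin, was at -4.26 and -4.69 in Vec, -4.21 and -4.85 in TET1-CDwt clones, -4.49 and -5.16 in MBD-TET1-CDmut, and -5.56 and -5.86 in MBD-TET1-CDwt. Its difference was 0.93 (at least 1.90-fold), with no overlap.

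STRC, the inner ear protein stereocilin, was at -5.43 and -3.12 in Vec, -5.50 and -5.25 in TET1-CDwt clones, -4.70 and -4.75 in MBD-TET1-CDmut, and -6.87 and -5.75 in MBD-TET1-CDwt. It was 0.75 (at least 1.68-fold) lower in MBD-TET1-CDwt, with Vec #2 far above Vec #1, and since the human genome holds a near-identical copy of this gene the probe may read both. CR2, the complement receptor CD21, was at -5.29 and -5.68 in Vec, -5.80 and -4.40 in TET1-CDwt clones, -4.39 and -4.05 in MBD-TET1-CDmut, and -5.96 and -6.01 in MBD-TET1-CDwt. The clones lay just below TET1-CDwt #2, by 0.16, while both MBD-TET1-CDmut clones were well above, so the difference of 0.60 against all 6 arrays was 1.31 against MBD-TET1-CDmut and 0.05 against Vec. The other 3 were MAGI1, a scaffold of cell junctions (0.51), the tight junction protein CLDN12 (0.33, the 1 with overlap), and ENG, a co-receptor for TGF-beta (0.29).

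The next 8 members were enzymes, transporters and secreted proteins, with the BTB domain protein KCTD7 placed beside them. They differed by 0.37 to 0.87, and 7 of them did not overlap. SLC35F1, of the SLC35 family of solute carriers, was at -4.36 and -4.78 in Vec, -4.77 and -4.86 in TET1-CDwt clones, -4.21 and -5.01 in MBD-TET1-CDmut, and -7.31 and -6.69 in MBD-TET1-CDwt. No coding member had a wider gap between the groups (1.68), yet the floor limited the difference to 0.87 (at least 1.83-fold), and as measured it was 2.34. PROS1, protein S, a cofactor in anticoagulation, was at -4.80 and -4.18 in Vec, -4.98 and -4.92 in TET1-CDwt clones, -5.11 and -4.38 in MBD-TET1-CDmut, and -5.81 and -5.53 in MBD-TET1-CDwt. The difference was 0.81 (at least 1.75-fold), without overlap. MGAT1, the enzyme that starts the hybrid and complex branches of N-glycans, was at -4.30 and -4.00 in Vec, -5.05 and -3.97 in TET1-CDwt clones, -4.68 and -4.81 in MBD-TET1-CDmut, and -5.33 and -5.20 in MBD-TET1-CDwt. TET1-CDwt #2 was within 0.15 of the nearer clone and the difference was 0.80 (1.74-fold).

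The remaining 5 were KCTD7, a BTB domain protein (0.61), the fatty acid hydroxylase CYP4A11 (0.53), the sulfotransferase SULT1C4 (0.51), the pancreatic phospholipase PLA2G1B (0.47), and ZDHHC1 of the palmitoyltransferase family (0.37). PLA2G1B had the widest distance between the MBD-TET1-CDwt clones of all members, -7.49 in #3 and -5.56 in #10. CYP4A11 was the 1 gene of this group with overlap and has close paralogs that a probe may share.

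The 5 nuclear proteins differed by 0.36 to 0.66. PHF12, a PHD finger protein of the Sin3 corepressor complex, was at -4.64 and -4.61 in Vec, -4.93 and -5.27 in TET1-CDwt clones, -4.09 and -5.30 in MBD-TET1-CDmut, and -5.43 and -5.56 in MBD-TET1-CDwt. MBD-TET1-CDmut #10 was only 0.22 above its floor, and the clones were 0.13 lower than that array. MLLT6, a fusion partner of KMT2A in leukemia, differed by 0.62, the homeobox gene LBX2 by 0.50, the heat shock factor HSF1 by 0.38, and the zinc finger gene ZNF589 by 0.36. HSF1 and ZNF589 overlapped. ZNF589 was the 1 zinc finger gene (ZNF) among the 51 named probes (1.96%, against 3.03% of named probes well above background on the 6 arrays).

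The 4 genes of the cytoskeleton and cilium differed by 0.24 to 0.69, the cilium protein CFAP53 by 0.69, the formin FMNL1 by 0.62, the coronin CORO2B by 0.35, and STRN, striatin of the phosphatase 2A complex, by 0.24. Of these, CFAP53 and STRN overlapped, whereas FMNL1 was 0.86 lower in both clones than on any other array.

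Among 9 further coding genes the range was 0.09 to 0.87. TRIM50, of the TRIM family of ubiquitin ligases, was at -5.32 and -3.36 in Vec, -5.52 and -4.52 in TET1-CDwt clones, -4.66 and -4.71 in MBD-TET1-CDmut, and -6.48 and -7.00 in MBD-TET1-CDwt. The difference was 0.86 (at least 1.81-fold), with both clones lowest and with Vec #2 far above Vec #1. The other TRIM50 probe, not well above background on any array, went the other way, with a difference of -1.51 as measured. FAM90A10, of a primate family of near-identical copies that a probe cannot separate, was at -4.58 and -4.23 in Vec, -5.15 and -4.35 in TET1-CDwt clones, -4.69 and -4.56 in MBD-TET1-CDmut, and -5.41 and -5.97 in MBD-TET1-CDwt. It differed by 0.87 (at least 1.82-fold), without overlap. The remaining genes were KIAA1549L (0.58), KRTAP4-1, a hair keratin-associated protein (0.55), XRRA1 (0.44), MCC (0.27), OR5K3 (0.11), CCDC121 (0.10) and ENTREP1 (0.09).

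The members nearest the limit on the 6 arrays were ENTREP1, CR2, PHF12, CCDC121 and ENST00000400216. ENTREP1, an endosomal transmembrane protein, was at -5.53 and -5.66 in Vec, -5.60 and -5.55 in TET1-CDwt clones, -4.87 and -5.47 in MBD-TET1-CDmut, and -6.49 and -6.28 in MBD-TET1-CDwt. Both clones were 0.62 below all other arrays, but the other arrays were so close to the floor of slide 2 that the difference with the floor was 0.09, and it was 0.94 as measured. CCDC121, a coiled-coil protein, was at -5.58 and -5.67 in Vec, -5.61 and -5.62 in TET1-CDwt clones, -5.21 and -4.94 in MBD-TET1-CDmut, and -5.71 and -6.43 in MBD-TET1-CDwt. The Vec and TET1-CDwt clones all lay below the floor of slide 2, and the difference with the floor was 0.10. ENST00000400216 was at -4.91 and -5.49 in Vec, -5.06 and -5.16 in TET1-CDwt clones, -5.29 and -5.26 in MBD-TET1-CDmut, and -5.48 and -5.62 in MBD-TET1-CDwt and differed by 0.30, with overlap.

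By annotation, 2 members were pseudogenes. RDM1P5 was at -4.45 and -3.33 in Vec, -4.83 and -3.92 in TET1-CDwt clones, -5.00 and -4.35 in MBD-TET1-CDmut, and -5.69 and -5.37 in MBD-TET1-CDwt. Its difference was 1.15 (at least 2.22-fold), without overlap, and its parent gene may share the probe. POLR1HASP, antisense to POLR1H, was at -4.35 and -4.59 in Vec, -4.61 and -4.79 in TET1-CDwt clones, -4.55 and -5.07 in MBD-TET1-CDmut, and -5.41 and -6.10 in MBD-TET1-CDwt. The difference was 0.80 (at least 1.75-fold), and the clones were both lowest. The 5 probes of long non-coding RNAs were BTG2-DT (0.71), a divergent transcript next to BTG2, the 2 probes of LINC01061 (0.56 and 0.39), HCG4 (0.53) and LINC00574 (0.52).

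The 25 members with no symbol included 6 of the 20 largest differences. BC047507, a GenBank sequence, was at -4.85 and -3.98 in Vec, -4.47 and -3.80 in TET1-CDwt clones, -4.12 and -4.24 in MBD-TET1-CDmut, and -6.85 and -5.62 in MBD-TET1-CDwt. It differed by 1.29 (at least 2.45-fold), with clone #10 0.77 below the nearest other array. ENST00000375673 was at -4.60 and -4.21 in Vec, -4.18 and -4.87 in TET1-CDwt clones, -5.18 and -4.39 in MBD-TET1-CDmut, and -5.51 and -5.44 in MBD-TET1-CDwt, with a difference of 0.91 (1.87-fold). The probe A_33_P3407626 was at -3.44 and -4.52 in Vec, -4.86 and -4.86 in TET1-CDwt clones, -4.99 and -4.89 in MBD-TET1-CDmut, and -5.48 and -5.59 in MBD-TET1-CDwt. It differed by 0.90 (at least 1.87-fold), and Vec #1 stood above the rest.

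XR_115108 was at -4.57 and -4.82 in Vec, -4.78 and -4.59 in TET1-CDwt clones, -4.55 and -4.99 in MBD-TET1-CDmut, and -5.59 and -5.65 in MBD-TET1-CDwt and differed by 0.82 (at least 1.77-fold). NM_178231 was at -4.52 and -4.64 in Vec, -4.81 and -4.56 in TET1-CDwt clones, -4.69 and -4.82 in MBD-TET1-CDmut, and -5.48 and -5.48 in MBD-TET1-CDwt. Its 6 other signals spanned only 0.29, the clones were 0.66 below the lowest of them, and the difference was 0.81 (1.75-fold). ENST00000486522 was at -4.87 and -4.82 in Vec, -5.01 and -4.78 in TET1-CDwt clones, -4.58 and -4.83 in MBD-TET1-CDmut, and -6.08 and -6.99 in MBD-TET1-CDwt and differed by 0.72 (at least 1.65-fold), or by 1.72 as measured. For all 20 largest differences both MBD-TET1-CDwt clones were below the 6 other arrays.

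**Figure D3:**
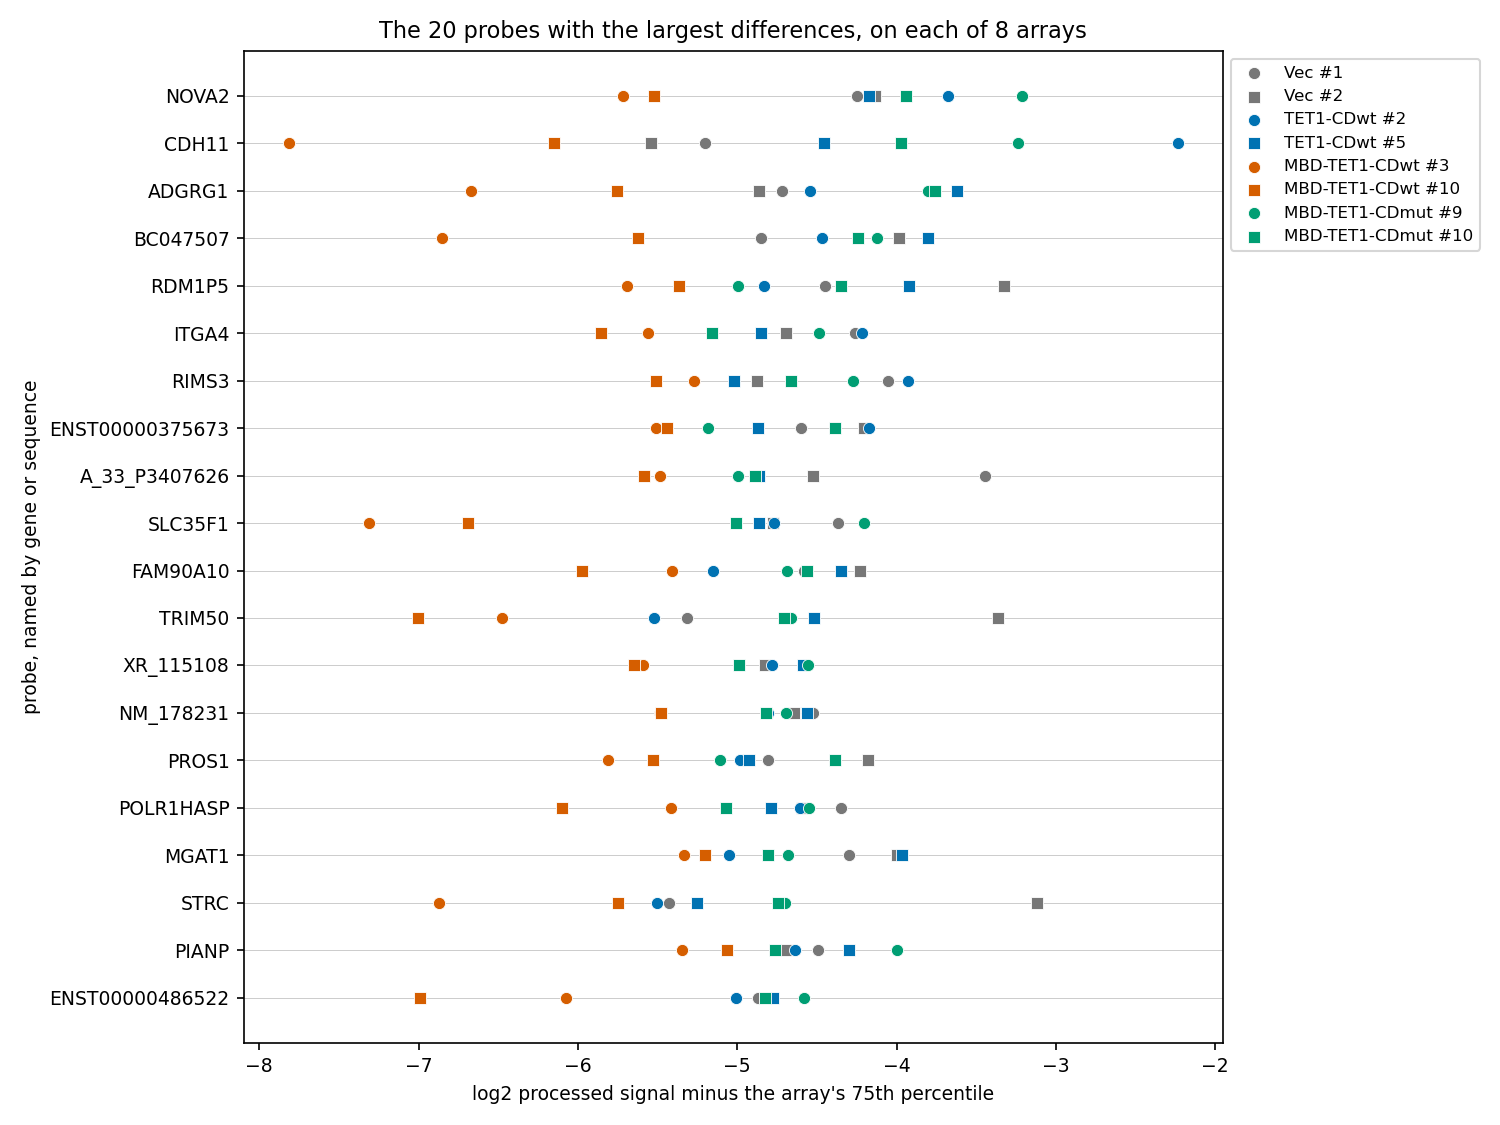
Signal of the 20 probes with the largest differences (y axis, named by gene or sequence) on each of the 8 arrays, as log2 processed signal minus the array's 75th percentile (x axis); colours are constructs and shapes the 2 clones. The MBD-TET1-CDwt clones were lowest in each row, and CDH11 spread from -7.82 to -2.23.

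The other members without a symbol were the Ensembl transcripts ENST00000396419, ENST00000389511, ENST00000415882, ENST00000485364, ENST00000380291, ENST00000372550, ENST00000390268 and ENST00000311990, the RefSeq transcripts XR_037113, NM_007105 and XM_003118964, the GenBank sequences BC071972, AF258580, CR610699, AL162052 and AK092022, and the probes A_33_P3416196 and A_33_P3407691. Their differences ranged from 0.27 in ENST00000311990 to 0.71 in ENST00000396419.

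Other probes of the same genes were read as a second measure, although on the same arrays. Of the 50 named genes 28 had another probe (40 probes in all), and 23 genes had one that was well above background on all 8 arrays, the MBD-TET1-CDwt clones included. Over the 32 other probes well above background on the 6 arrays, the difference had a median of 0.19 and ranged from -0.26 to 1.17, with 26 lower and 6 higher in MBD-TET1-CDwt, 7 of the 32 being probes of LINC01061 or HSF1. Averaged by gene, 19 of 23 were lower, some by little, such as PROS1 and CCDC121 by 0.03. Of all 20864 single probes, 10258 (49.2%) were lower in MBD-TET1-CDwt by any amount. Genes and single probes are unlike units, and no test was made between these shares. The other probes not well above background on all 6 arrays were left out. As measured, they ranged from -1.51 in TRIM50 to 0.905 in FMNL1.

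CR2 and SLC35F1 were at least 2-fold lower by their other probe as well. The second probe of CR2 was at -1.75 and -2.38 in Vec, -1.91 and -1.33 in TET1-CDwt clones, -0.99 and -1.21 in MBD-TET1-CDmut, and -2.75 and -2.77 in MBD-TET1-CDwt, a difference of 1.17. SLC35F1 was at 0.73 and 0.39 in Vec, 0.72 and -0.31 in TET1-CDwt clones, 0.48 and 0.39 in MBD-TET1-CDmut, and -0.68 and -0.58 in MBD-TET1-CDwt by its second probe, a difference of 1.03. Both probes of each gene had the MBD-TET1-CDwt clones lowest, here far above the detection limit.

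ENTREP1, with a difference of only 0.09 by the member probe, differed by 0.98 by the second, which read -1.66 and -1.63 in Vec, -1.56 and -1.23 in TET1-CDwt clones, -1.25 and -1.18 in MBD-TET1-CDmut, and -2.94 and -1.86 in MBD-TET1-CDwt. Several genes differed less by their other probes. ITGA4 differed by 0.06 and -0.26 by its other probes against 0.93 by the member probe, and PROS1 by 0.03 against 0.81. MGAT1 differed by 0.03 and 0.12, and its brighter probe lay at 1.48 on average on the 6 arrays, against -4.47 for the member probe. HSF1, at 4.88 and 4.77 by its other probes, differed by -0.02 and -0.07. Different probes of a gene can read different transcripts, and which transcripts these probes read was not examined.

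**Figure D4:**
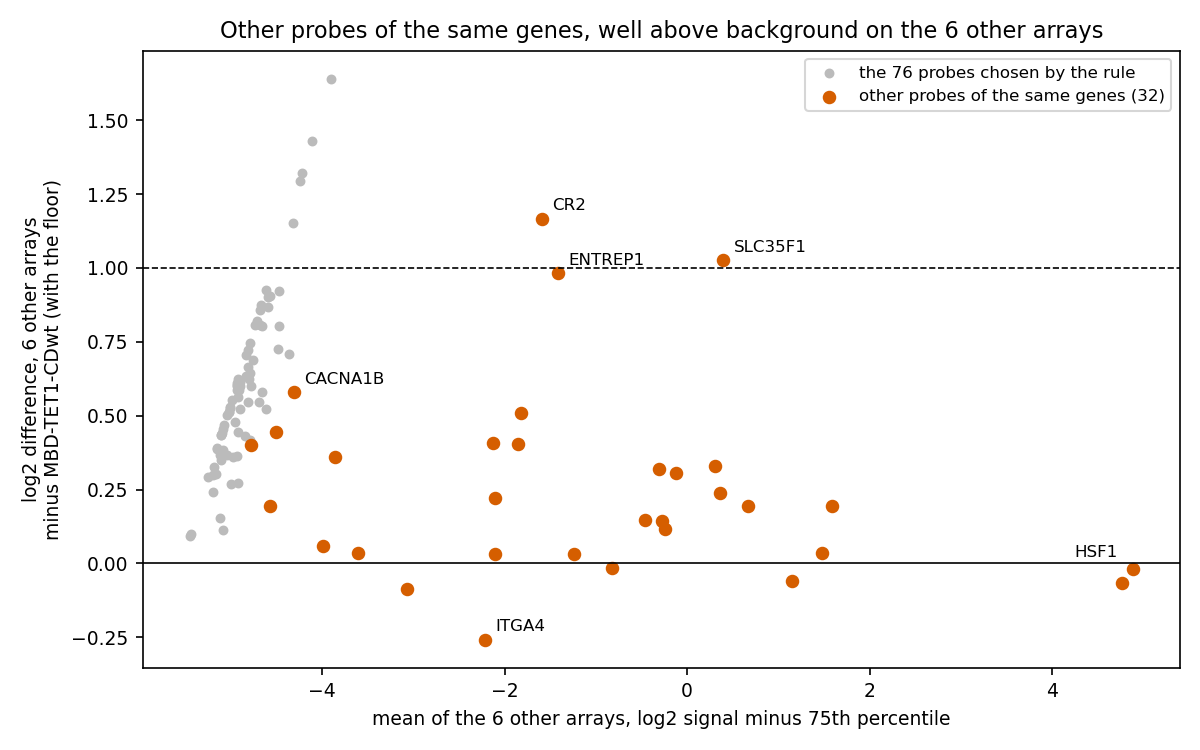
Log2 difference between the 6 other arrays and MBD-TET1-CDwt (y axis, with the floor) against the mean signal of the 6 arrays (x axis, log2 signal minus 75th percentile); grey points are the 76 members and orange points the 32 other probes of the same genes. CR2 and SLC35F1 lay above the dashed 2-fold line, ENTREP1 just below it at 0.98, and HSF1 near 0 at the bright end.

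Just outside the rule the largest differences exceeded those of the members. Of the 20864 probes well above background on the 6 arrays, 427 missed the flag in 1 of the 2 MBD-TET1-CDwt clones, 303 in clone #3 and 124 in clone #10. The same count was 182 of 20590 in MBD-TET1-CDmut, 40 of 20402 in Vec and 52 of 20413 in TET1-CDwt. ANKRD1, a cardiac ankyrin repeat protein and YAP target, had the largest difference among them, 2.81, and was at -2.38 and -3.50 in Vec, -4.42 and -0.46 in TET1-CDwt clones, -1.53 and -2.56 in MBD-TET1-CDmut, and -5.05 and -5.59 in MBD-TET1-CDwt. It kept the flag in clone #3 at -5.05. RPRM, reprimo, a mediator of cell cycle arrest, differed by 2.30, but its signal of -6.15 in clone #3 stood against -1.90 in clone #10. The same was seen in KLHDC7B, a kelch domain gene (1.95, with -5.65 in #3 and -2.82 in #10), whereas MEIS3, a homeobox gene, was low in both (1.99, with -5.73 and -5.45). ENST00000464366 differed by 2.24.

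A further 97 probes were well above background on 5 of the 6 arrays and on neither clone. Among the largest differences there were the cadherin CDH18 (1.59), the amide hydrolase FAAH2 (1.37), ENST00000399026 (0.92) and the protocadherin PCDHB11 (0.82). CDH18 was at -1.65 and -3.95 in Vec, -4.01 and -3.96 in TET1-CDwt clones, -4.16 and -5.96 in MBD-TET1-CDmut, and -6.78 and -6.06 in MBD-TET1-CDwt, and missed the flag in MBD-TET1-CDmut #10. Both MBD-TET1-CDwt clones were below all other arrays for CDH18, while the 6 other arrays spread by more than 2 on the log2 scale.

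The members were then compared between the 3 constructs of which the rule asked the same flag. The flags of these 6 arrays were part of the rule and the limit for the flag was higher on slide 2, so values of MBD-TET1-CDmut against Vec or TET1-CDwt are given as a description only, and construct and slide cannot be told apart in them. Vec and TET1-CDwt shared slide 1. In limma fitted to 22530 probes on all 8 arrays, 0 of the 76 members passed an adjusted p of 0.05 for TET1-CDwt against Vec, for MBD-TET1-CDmut against Vec, or for MBD-TET1-CDmut against TET1-CDwt, and 0 of the 22530 probes passed (0% in each direction). The adjusted p was 1 for each of the 76 members in all 3 comparisons, which share arrays.

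At an unadjusted p under 0.05 for TET1-CDwt against Vec, 1 member was higher and 7 lower (1.32 and 9.21% of members, against 0.652 and 1.85% of all probes), and with median scaling 1 was higher and 3 lower. For MBD-TET1-CDmut against Vec 4 were higher and 3 lower (5.26 and 3.95%, against 0.861 and 1.82%). Against TET1-CDwt 4 were higher and 0 lower (5.26 and 0%, against 1.45 and 1.18%), but 0 and 0 with median scaling or an intensity trend, and 0 and 1 with quantile normalization. Both comparisons with MBD-TET1-CDmut cross the slides, and the higher limit on slide 2 entered the choice of members. The flags on the Vec and TET1-CDwt arrays were part of the rule as well, and the members were far dimmer than most probes. The shares of members beside those of all probes are therefore a description in each comparison and cannot be read as an excess.

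Within slide 1, the members with the smallest p in TET1-CDwt against Vec were KIF5A, lower in TET1-CDwt by 0.94 (difference -0.94, SE 0.19, n = 2 clones each, limma adjusted p = 1), OR5K3 (-0.80, SE 0.17) and ENST00000389511 (-1.04, SE 0.23). CDH11 was 2.03 higher in TET1-CDwt (SE 0.79), with both Vec clones below both TET1-CDwt clones. Between MBD-TET1-CDmut and Vec the 7 members with an unadjusted p under 0.05 were KIF5A (-0.59, SE 0.19), A_33_P3407626 (-0.96, SE 0.33) and A_33_P3416196 (-0.52, SE 0.18), lower in MBD-TET1-CDmut, and CR2 (1.26, SE 0.43), SCG3 (0.61, SE 0.22), ADGRG1 (1.01, SE 0.39) and ZDHHC1 (0.46, SE 0.19), higher in it. None of these differences held up against the spread between clones after adjustment. The median over the members was -0.10 for TET1-CDwt against Vec (-0.03 over all probes), and -0.01 with median scaling and 0.04 with quantile normalization. For MBD-TET1-CDmut against Vec it was -0.04 (-0.02 over all probes), and 0.03 with quantile normalization. For MBD-TET1-CDmut against TET1-CDwt it was 0.18 (0.01 over all probes), and 0.12 with median scaling and 0.10 with quantile normalization.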

How the data were processed

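Total RNA of 8 stable HEK293T clones, 1 array each, was labeled with Cy3 and hybridized to single-color Agilent Human Gene Expression 4x44K v2 arrays. The intensity values deposited by the authors are the processed signals of Agilent Feature Extraction (version 10.7.3.1 in the file headers, 9.5.1 in the submitters' processing notes), after background subtraction and without scaling between arrays. The deposited detection flags came from the same software.

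Flags decided membership, by more than 50% of the spots of a probe. For sizes, control spots and outlier spots (213 to 269 per array) were left out, and log2 intensity minus the array's 75th percentile was averaged by probe. Of 34127 probes, 25422 (74.5%) matched a symbol in a RefSeq table (GRCh38.p14). limma 3.58.1 (R 4.3.3) was fitted with 4 group means over 22530 probes that were flagged in both clones of 1 or more constructs, with Benjamini-Hochberg adjustment. A check on simulated data required calls only for folds larger than those of any member. It therefore does not show that smaller folds would be called. Slide coincides with pairs of constructs, so no slide term could be fitted. With 2 clones each, p-values measure the spread between these clones only, and the number of arrays limits the precision. Python 3.11.15, numpy 2.4.6, pandas 2.3.3 and matplotlib 3.10.9 were used.

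The members and lists were chosen with earlier results of these data known. All members are named, with values on each array for the 20 largest differences and the 5 nearest the floor, and the 5 largest differences on each side just outside the rule, of which 1 is not reported here. Alternatives were other flags, numbers of arrays, scalings, floors, comparison groups, limma settings, and leaving out each clone. The normexp correction (offset 50) used the median spot signal, since mean signals were not used here.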

Additional observations from a re-analysis of the deposited data

How the results depend on the processing

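The rule gave 76 probes, 173 with at least 5 of the 6 other arrays required, and 79 to 379 with 1 array left out. Leaving out MBD-TET1-CDwt #3 or #10 moved it most, to 200 and 379. Leaving out an array only removes a condition of the rule, so that the members stay by construction. With the weaker flag (positive and significant) in place of well above background the rule gave 60 probes, and 0 of them were members. The 5 members at least 2-fold lower became 0 with normexp background correction, 20 with dim signals as measured, 12 against Vec alone, and 5 to 6 with 1 array left out. The 0 members at least 5-fold lower became 2 with dim signals as measured. The median difference of 0.56 became 0.71 with dim signals as measured, 0.67 against Vec alone, and 0.53 to 0.59 with 1 array left out. Of 300 alternative values for the 20 largest differences, 14 moved by more than the spread between clones, and the causes were not tested. The direction of these differences was fixed by the choice of the members. normexp moved the median of all probes by 0.13. The limma counts of members stayed at 0 in every setting run, while up to 69 of all probes passed with 1 array left out. With normexp the median over the members became -1.50 for TET1-CDwt against Vec (-0.43 over all probes), -0.46 for MBD-TET1-CDmut against Vec (-0.19) and 1.05 for MBD-TET1-CDmut against TET1-CDwt (0.25). No paired analysis was possible because the clones were isolated separately within each construct, so that a clone number pairs nothing. Signals this near background limit what the arrays can show of the members.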
